A study of Sciaenops ocellatus with 36 samples.

Results

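Of the 36 samples of a red drum (Sciaenops ocellatus) oil study, 6 are described here: the unexposed larvae at 48 hours post fertilization (hpf) that served as controls in its slick-oil series and in its source-oil series, 3 libraries each. They were chosen by library name from the deposited table headed as source oil against its control at 48 hpf. Its oil columns hold libraries named as slick-series controls, and its control columns hold libraries named as source-series controls, so that neither side had received oil. The comparison asks how far unexposed fish of the same species and age differ between the series.

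Each library was made from a pool of 30 whole embryos or larvae, so that a replicate averages many fish. The slick-series controls at 48 hpf, with 0% oil, are set against the source-series controls at 48 hpf, with 0% oil. Groups used for context are slick oil (2.5%, weathered oil collected from a surface slick) at 24, 48 and 72 hpf, source oil (0.27%, a non-weathered surrogate of the Deepwater Horizon well oil) at 72 hpf, and source-series controls at 72 hpf. Slick-series controls at 24 hpf (0% oil, 2 libraries) enter only the common scale and the fit over 23 libraries. All embryos came from brood stock tanks and had been treated with formalin before the tests. The labels do not say whether the series used the same spawn, nor whether replicates came from separate tanks, so p-values measure the spread between these libraries, which may be technical.

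In a marine fish larva of this age the yolk sac still feeds the animal, while the gut, the liver and the exocrine pancreas are differentiating ahead of first feeding. The exocrine pancreas makes digestive proteases, lipases and amylase, and the brush border of the gut absorbs what they release. At the same time the retina adds working photoreceptors, the finfold is held together by basement membrane proteins, and all growing tissues depend on ribosomes. Many of these transcripts change steeply with developmental time.

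Total counts were 2904693, 2686586 and 2532402 in slick-series libraries 4, 5 and 6, and 2910031, 3071850 and 2814512 in source-series libraries 4, 5 and 6, numbered as in the column headers. Levels are given in CPM, read counts brought to a common library total after TMM scaling. Fold changes are log2 of slick series over source series, and a gene is called at an adjusted p under 0.05 in edgeR's quasi-likelihood test with Benjamini-Hochberg adjustment over 9097 genes. Since the rows carry human symbols for fish reads, a symbol may combine or divide fish paralogs.

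The absence of oil was checked first on CYP1A1, the oxygenase induced through the aryl hydrocarbon receptor (AHR) by oil hydrocarbons. On a common scale over 23 libraries its level was 236 ± 61.6 CPM in slick-series controls and 393 ± 174 CPM in source-series controls (SD, n = 3 each). Slick-oil larvae of the same age had 2770 ± 255 CPM (SD, n = 3). Every one of the 6 unexposed libraries lay below every slick-oil library, including those deposited under an oil heading. Scaled within the comparison, CYP1A1 had 239, 195 and 322 CPM in slick-series libraries 4 to 6, against 443, 600 and 227 CPM in source-series libraries 4 to 6. The groups overlapped, and the log2 fold change of -0.75 (SE 0.22) was not called, with an edgeR adjusted p of 0.0512. It was called when slick-series library 6, source-series library 4 or source-series library 6 was left out, always in the same direction. AHRR, the repressor induced by the same receptor, had 19.6, 22.1 and 19.8 CPM in the slick series and 18.5, 18.0 and 14.1 CPM in the source series, a log2 fold change of 0.28 with an edgeR adjusted p of 0.371. Of the 15 AHR and xenobiotic genes tested, edgeR called 0, with a median of -0.10. At an unadjusted p under 0.05 there were 7 of the 15, beside 20.9% of all 9097 genes. There was 1 edgeR call, lower, without slick-series library 6, source-series library 4 or source-series library 6.

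Without oil on either side, 405 of the 9097 genes (4.45%) were called, 186 higher (2.04%) and 219 lower (2.41%) in the slick series. These shares are the background for the counts of called list members below. The called changes were small, with a median absolute log2 fold change of 0.47, and 49 reached 2-fold. The median over all genes was -0.01. The groups did not overlap in 400 of the called genes. Over all tested genes the slick series lay wholly above in 12.3% and wholly below in 12.6%. In total, 66 genes were called in every fit that left out 1 library, 20 of them higher and 46 lower. The number called depended on single libraries: it was 110 without slick-series library 5, 115 without slick-series library 6, 114 without source-series library 5 and 97 without source-series library 6, but 1206 without source-series library 4. Libraries of different series differed by 0.364 to 0.417 (root mean square of log2 CPM over all tested genes), against 0.321 to 0.349 within the slick series and 0.291 to 0.346 within the source series.

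**Figure D1:**
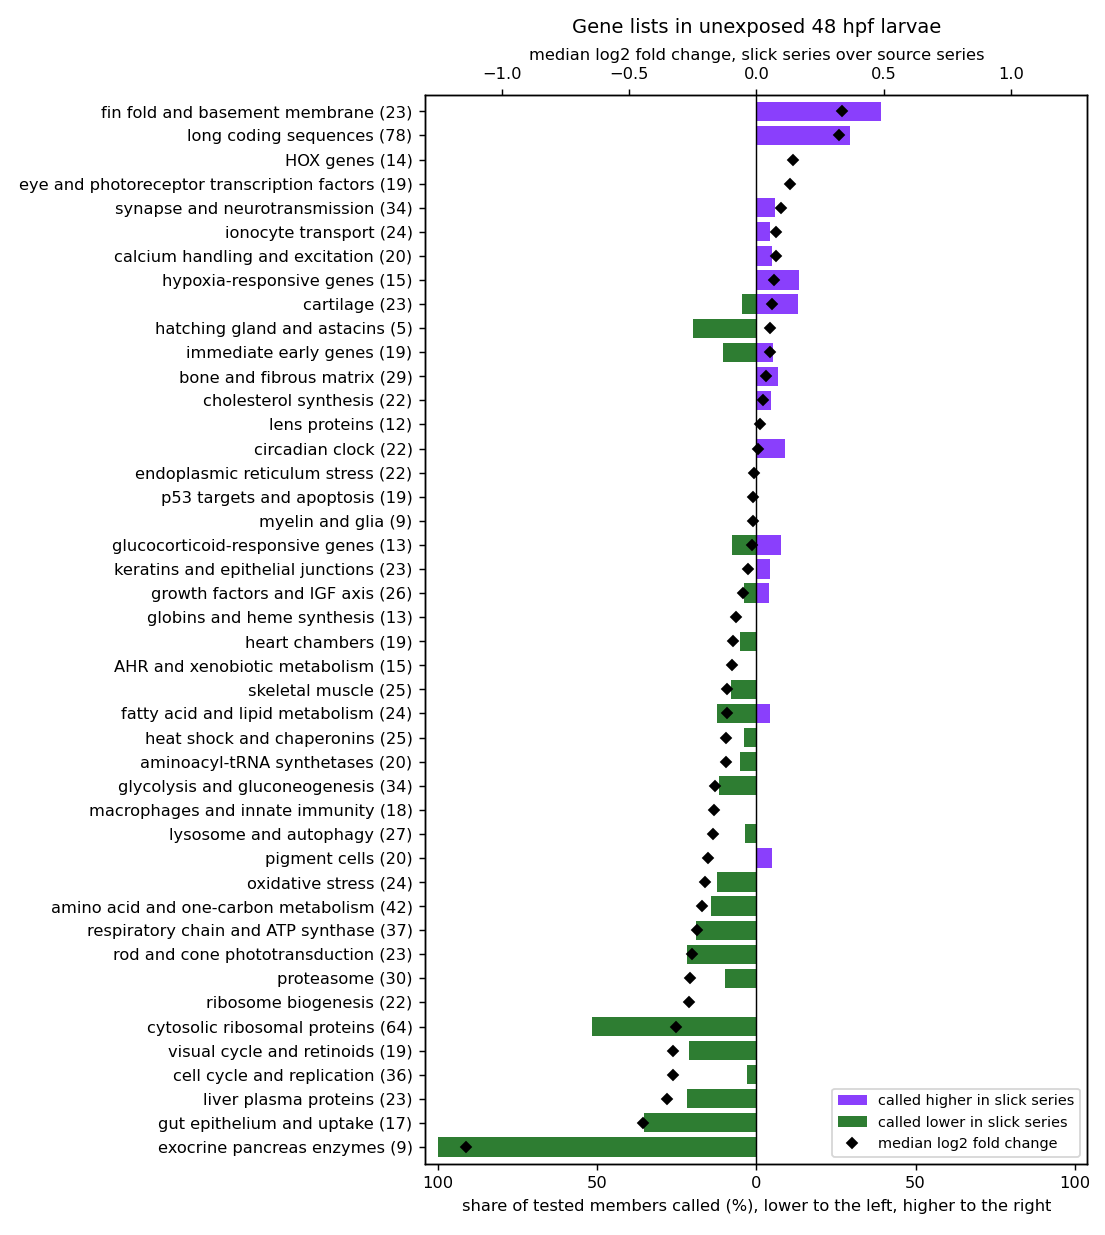
Gene lists in the slick-series over source-series comparison at 48 hpf, with the number of tested members in brackets; bars show the percentage of tested members called higher (right) or lower (left, lower axis) and diamonds the median log2 fold change (upper axis). Exocrine pancreas, gut and ribosomal protein lists lie furthest on the lower side by median or share, and the fin fold and basement membrane list and the long coding sequences on the higher side. The long coding sequences were listed after the results had been seen and share members with the fin fold and basement membrane list.

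Digestive enzymes of the exocrine pancreas had the largest median difference of the lists. All 9 tested genes of the list were called lower in the slick series, with a median log2 fold change of -1.14. Of the 30 genes listed only 11 had any count in these libraries, and these 9 passed the filter on low counts. Summed over the 9 genes, the level was 1859, 3085 and 3630 CPM in slick-series libraries 4 to 6, against 8464, 5222 and 5030 CPM in source-series libraries 4 to 6. The groups did not overlap, with slick-series library 4 lowest and source-series library 4 highest. In whole larvae, fewer cells of a type and less RNA per cell cannot be told apart.

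PRSS1, a trypsinogen that activates the other pancreatic proteases once cleaved, had 1018, 1749 and 1869 CPM in the slick series and 4504, 2895 and 2802 CPM in the source series. Every slick-series library was below every source-series library, and the log2 fold change was -1.14 (SE 0.18, adjusted p = 0.00094 by edgeR). CTRB1, a chymotrypsinogen, had 547, 782 and 1155 CPM in the slick series and 2348, 1531 and 1442 CPM in the source series. Its fall of -1.10 on the log2 scale (SE 0.19, adjusted p = 0.00248 by edgeR) had the same arrangement of libraries, lowest in slick-series library 4 and highest in source-series library 4. CELA1, an elastase, had 37.6, 92.2 and 114 CPM in the slick series and 320, 182 and 182 CPM in the source series, a log2 fold change of -1.50 (SE 0.25, adjusted p = 0.00166 by edgeR). These groups were also separate. CPA1, a carboxypeptidase that trims peptides from the end, had 63.0, 84.8 and 77.4 CPM in the slick series and 152, 109 and 102 CPM in the source series. Its change was the smallest of the 9, at -0.69 (SE 0.13, adjusted p = 0.00616 by edgeR).

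Transcripts of amylase, which digests starch, were lower as well. AMY2B, an amylase, had 98.2, 177 and 187 CPM in the slick series and 572, 239 and 242 CPM in the source series, a log2 fold change of -1.19 (SE 0.25, adjusted p = 0.0107 by edgeR). AMY1B had almost the same values, with a log2 fold change of -1.25. The amylase symbols are near-identical copies in humans, so the division of reads between them is uncertain, and they count as 1 observation. The remaining called members were CTRC (-1.08), CPB1 (-1.16), PLA2G1B (-1.42) and CEL (-0.76), a chymotrypsinogen, a carboxypeptidase, a phospholipase and a lipase. In CPB1 the groups overlapped, since slick-series library 6 had 50.5 CPM and source-series library 5 had 45.6 CPM. KLK14, a kallikrein-type serine protease outside the list, fell by 1.34 on the log2 scale, and FAM13A fell by 1.26. DESeq2 called neither KLK14 (DESeq2 adjusted p = 0.0749) nor FAM13A (DESeq2 adjusted p = 0.0634). It also called neither AMY2B (DESeq2 adjusted p = 0.144) nor AMY1B (DESeq2 adjusted p = 0.145).

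The direction of the pancreas group did not rest on 1 library, but its size did. Without source-series library 4 the median was -0.65 and 6 of 9 were called lower by edgeR. Without slick-series library 4 the median was -0.87 and again 6 were called, and without slick-series library 5 it was -1.24 with 5 called. PRSS1, CTRB1, CELA1, CPA1 and AMY2B were called in every fit that left out 1 library. DESeq2, which gave an adjusted p for 7 of the 9 genes, called 2 of them.

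The absorptive gut pointed the same way. Of 17 tested genes of the gut list 6 were called lower and 0 higher, all 17 had negative fold changes, and their median was -0.44. LCT, a brush-border enzyme that is lactase in mammals, had 20.0, 44.6 and 35.4 CPM in the slick series and 133, 85.2 and 86.3 CPM in the source series. Its log2 fold change of -1.61 (SE 0.20, adjusted p = 0.000104 by edgeR) was the lowest of all called genes, and the groups were separate. APOA4, an apolipoprotein of dietary lipid export, had 21.3, 15.5 and 11.7 CPM in the slick series and 39.1, 42.0 and 31.8 CPM in the source series, a log2 fold change of -1.21 (SE 0.18, adjusted p = 0.000872 by edgeR). No slick-series library reached the lowest source-series value.

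The uptake carriers were at low levels and less stable. SLC15A1, the intestinal di- and tripeptide transporter, had 5.08, 11.4 and 13.2 CPM in the slick series and 33.8, 21.97 and 14.4 CPM in the source series. Slick-series library 6 and source-series library 6 came close to each other, and the log2 fold change was -1.26 (SE 0.29, adjusted p = 0.0187 by edgeR). The glucose carrier SLC5A1 (-1.08) and the neutral amino acid carrier SLC6A19 (-0.62) fell too, as did LGMN, a lysosomal protease, by 0.55 on the log2 scale. SLC15A1 lost its call without slick-series library 4, slick-series library 5 or source-series library 5, with edgeR adjusted p between 0.0514 and 0.0671. LGMN lost it without slick-series library 5 (edgeR adjusted p = 0.0524). The number of gut genes called was 3 without slick-series library 4, 2 without slick-series library 5 and 7 without source-series library 4.

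**Figure D2:**
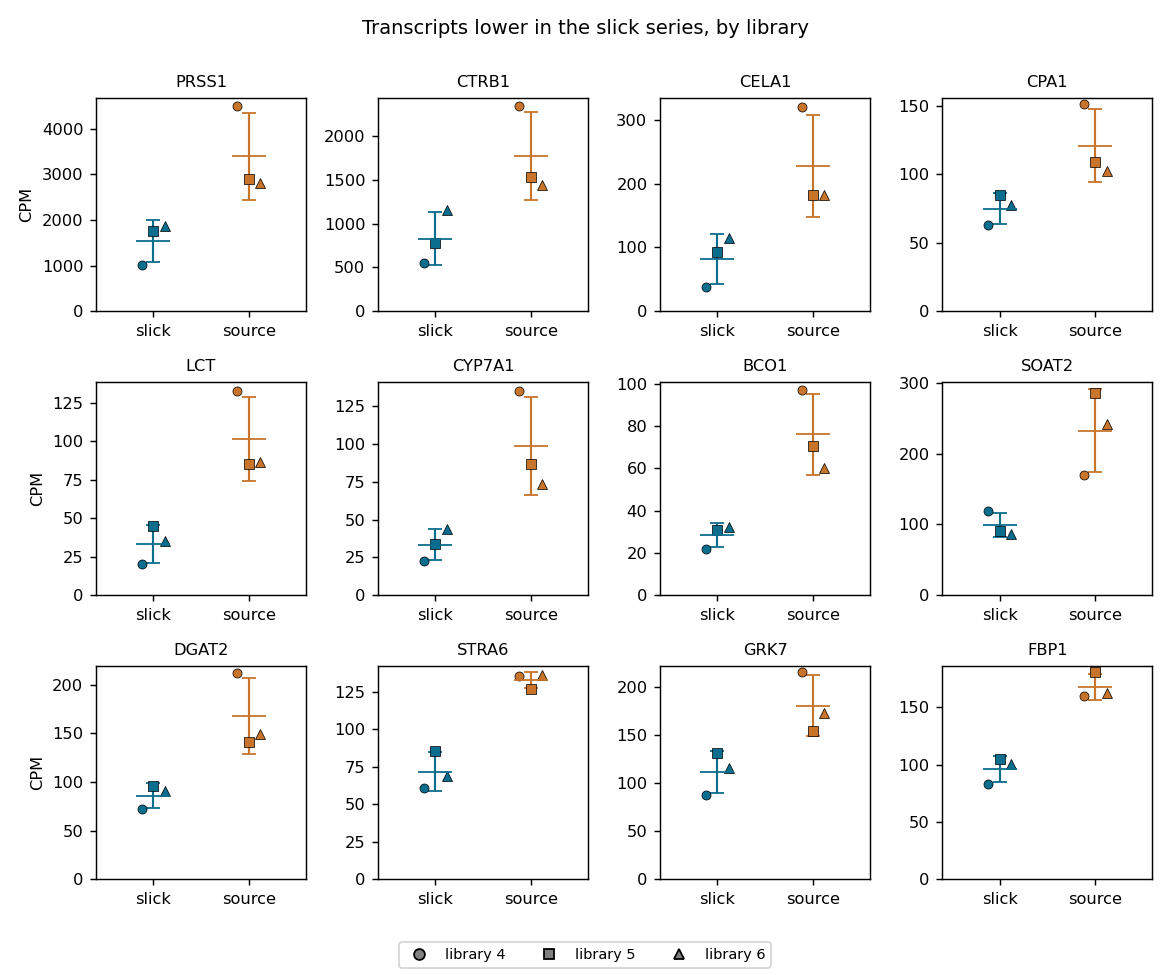
Level (CPM, from 0) of 12 transcripts called lower in the slick series, by library (circle, square and triangle for libraries 4, 5 and 6); horizontal marks and bars show mean and SD of 3 libraries, slick series left and source series right. In each panel the slick-series points lie below the source-series points, and in the pancreatic panels library 4 is the lowest slick-series point and the highest source-series point.

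Of the 24 tested genes of the fatty acid and lipid list 3 were called lower and 1 higher, with a median of -0.12. There were 6 lower calls without source-series library 4, and 2 in each of the other fits that left out 1 library. Of 22 cholesterol synthesis genes 1 was called higher (4.55%, beside 2.04% of all tested genes) and 0 lower, with a median of 0.03. CYP7A1, the rate-limiting enzyme of bile acid synthesis in the liver, was named for the size of its fall and had 22.7, 33.9 and 43.5 CPM in the slick series and 136, 86.9 and 73.6 CPM in the source series. The groups were separate, with a log2 fold change of -1.58 (SE 0.20, adjusted p = 0.000123 by edgeR). On the lipid list, DGAT2, which completes triglyceride synthesis, had 71.8, 95.5 and 91.0 CPM in the slick series and 212, 141 and 150 CPM in the source series. It fell by 0.96 on the log2 scale (SE 0.14, adjusted p = 0.000401 by edgeR). MOGAT2, which re-esterifies absorbed monoglycerides, had 17.3, 16.6 and 14.8 CPM in the slick series and 42.7, 32.8 and 29.2 CPM in the source series, a log2 fold change of -1.10 (SE 0.17, adjusted p = 0.00102 by edgeR). In both genes every slick-series library was below every source-series library.

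SOAT1 and SOAT2, which esterify cholesterol for storage or export and were also named for the size of their falls, differed from the pancreas pattern in which libraries were extreme. SOAT2 had 119, 91.5 and 86.7 CPM in the slick series and 170, 286 and 242 CPM in the source series, a log2 fold change of -1.23 (SE 0.15, adjusted p = 8.4e-05 by edgeR). Here slick-series library 4 was the highest of its group and source-series library 4 the lowest of its own. SOAT1 had 34.9, 28.4 and 26.4 CPM in the slick series and 67.6, 76.1 and 69.3 CPM in the source series, a log2 fold change of -1.24 (SE 0.13, adjusted p = 1.75e-05 by edgeR). Its spread within each series was small beside the gap. The lipid gene called higher was ACACA (0.51), the carboxylase that commits carbon to fatty acid synthesis. ACACA was not called without slick-series library 5, source-series library 5 or source-series library 6.

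Of 23 tested plasma protein genes made by the liver, 5 were called lower and 0 higher, with a median of -0.35. APOA4, which is also on the gut list, was the only one called in every fit that left out 1 library. The others were PLG (-0.53), the plasmin precursor, SERPINC1 (-0.88), which is antithrombin, the clotting factor F10 (-0.77) and the fibrinogen chain FGB (-0.52). The number called in this list was 1 without slick-series library 5, 2 without slick-series library 6, 2 without source-series library 5, 1 without source-series library 6 and 9 without source-series library 4.

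FBP1, a key enzyme of glucose synthesis in the liver, had 82.9, 105 and 100 CPM in the slick series and 160, 181 and 162 CPM in the source series. The groups were far apart relative to their spread, with a log2 fold change of -0.81 (SE 0.10, adjusted p = 0.000121 by edgeR). It was the 1 member called in every fit that left out 1 library among the 34 glycolysis and gluconeogenesis genes tested, of which 4 were called lower, 0 higher, with a median of -0.16. The same held for GPT, an alanine aminotransferase, in the list of amino acid and one-carbon enzymes. GPT had 66.0, 73.0 and 64.5 CPM in the slick series and 108, 89.5 and 96.0 CPM in the source series, a log2 fold change of -0.52 (SE 0.10, adjusted p = 0.0072 by edgeR). Of 42 tested genes of that list 6 were called lower and 0 higher, with a median of -0.21. Glycolysis had 1 call without slick-series library 5, slick-series library 6 or source-series library 6, 2 without slick-series library 4 or source-series library 5, and 5 lower and 2 higher without source-series library 4. The amino acid list had 1 call without slick-series library 6, 2 without source-series library 5 or source-series library 6, 3 without slick-series library 5 and 10 without source-series library 4.

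Of 19 tested visual cycle and retinoid genes 4 were called lower and 0 higher, with a median of -0.33. The libraries are of whole larvae, and retinoid genes are used outside the eye as well. BCO1, which cleaves beta-carotene to retinal, had 22.01, 31.0 and 32.3 CPM in the slick series and 97.2, 70.8 and 60.3 CPM in the source series. It fell by 1.43 on the log2 scale (SE 0.17, adjusted p = 8.4e-05 by edgeR), with separate groups, and it is also expressed in the mammalian gut. STRA6, the membrane receptor that takes up retinol, had 60.9, 85.9 and 68.8 CPM in the slick series and 136, 127 and 136 CPM in the source series, a log2 fold change of -0.89 (SE 0.11, adjusted p = 0.000114 by edgeR). DHRS9, a retinol dehydrogenase, fell by 0.77 on the log2 scale and RGR, a retinal-binding opsin of the pigment epithelium, by 0.44. RGR lost its call without source-series library 6 (edgeR adjusted p = 0.0566). RPE65, the isomerase of the visual cycle, had 278, 312 and 295 CPM in the slick series and 304, 328 and 359 CPM in the source series. These groups overlapped, and the change of -0.16 was not called (edgeR adjusted p = 0.296).

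Among 23 tested phototransduction genes 5 were called lower and 0 higher, with a median of -0.25. GRK7, the kinase that shuts off cone opsins, had 87.7, 131 and 116 CPM in the slick series and 215, 154 and 173 CPM in the source series. The groups were separate and the log2 fold change was -0.70 (SE 0.13, adjusted p = 0.0043 by edgeR). ARR3, the cone arrestin, fell by 0.44 on the log2 scale, PDE6G, an inhibitory phosphodiesterase subunit, by 0.57, GUCA1C, a guanylate cyclase activator, by 0.76, and GNGT2, a cone transducin subunit, by 0.46. GRK7 was called in every fit that left out 1 library, and was the 1 gene called without slick-series library 4, slick-series library 5 or source-series library 6. Without slick-series library 6 or source-series library 5 there were 3 calls, and without source-series library 4 there were 6 lower and 1 higher. Of 12 lens protein genes edgeR called 0 (1 at an unadjusted p under 0.05, median 0.01), and of 19 eye transcription factors 0 (4 at an unadjusted p under 0.05, median 0.13).

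Ribosomal proteins showed a small shift across nearly the whole group. All 64 tested cytosolic ribosomal protein genes had negative fold changes, 33 were called lower and 0 higher, and the median was -0.32. Their summed level was 79930, 76700 and 73680 CPM in slick-series libraries 4 to 6, against 87210, 97750 and 96150 CPM in source-series libraries 4 to 6. The sums did not overlap, and source-series library 4 was the one nearest to the slick series. RPS16, a small-subunit protein, had 145, 125 and 129 CPM in the slick series and 178, 220 and 186 CPM in the source series, a log2 fold change of -0.55 (SE 0.10, adjusted p = 0.00343 by edgeR). RPL18, a large-subunit protein, had 747, 727 and 674 CPM in the slick series and 902, 960 and 940 CPM in the source series. Its groups were separate as well, at a log2 fold change of -0.38 (SE 0.08, adjusted p = 0.0118 by edgeR).

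The count of ribosomal calls, unlike their direction, depended on the libraries included. It was 55 without source-series library 4 and 25 without slick-series library 4. It was 2 without slick-series library 5, 1 without slick-series library 6, and 2 without source-series library 5 or source-series library 6. RPS16 was called in each of these fits, and the median stayed between -0.38 and -0.27. DESeq2 called 43 of the 63 genes to which it gave an adjusted p, all lower. The 22 tested ribosome biogenesis genes had 0 edgeR calls, 7 at an unadjusted p under 0.05 and a median of -0.27.

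Of 37 nuclear-encoded respiratory chain and ATP synthase genes 36 had negative fold changes and 7 were called lower, 0 higher, with a median of -0.23. Examples are NDUFA10 of complex I (-0.43) and the cytochrome oxidase subunits COX5A (-0.30) and COX6B1 (-0.39). All 30 proteasome genes had negative fold changes and 3 were called lower, 0 higher, at a median of -0.26. Those were the core subunits PSMA2 (-0.39) and PSMA6 (-0.41) and the ATPase PSMC2 (-0.35). Of 24 oxidative stress genes 3 were called lower and 0 higher, namely GPX4 (-0.39), which reduces lipid peroxides, the ferritin chain FTH1 (-0.41) and the superoxide dismutase SOD1 (-0.37). Among these 3 lists 0 genes were called in every fit that left out 1 library. Each list had 0 calls without source-series library 5 or source-series library 6 and at most 1 without slick-series library 5 or slick-series library 6, and the respiratory chain list had 0 without slick-series library 4. Without source-series library 4 there were 17 respiratory chain, 20 proteasome and 9 oxidative stress calls. Of 36 cell cycle and replication genes 1 was called, RRM2 (-0.48), a subunit of the enzyme that makes deoxynucleotides. That is 2.78% of the list, near the 2.41% of all tested genes called lower. RRM2 lost its call without slick-series library 5, slick-series library 6 or source-series library 5, where the list had 0 calls. There were 4 calls without slick-series library 4 and 6 without source-series library 4, all lower. The list had a median of -0.33 with 32 negative values, and PCNA, the replication clamp, had a log2 fold change of -0.37 with an edgeR adjusted p of 0.0998.

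**Figure D3:**
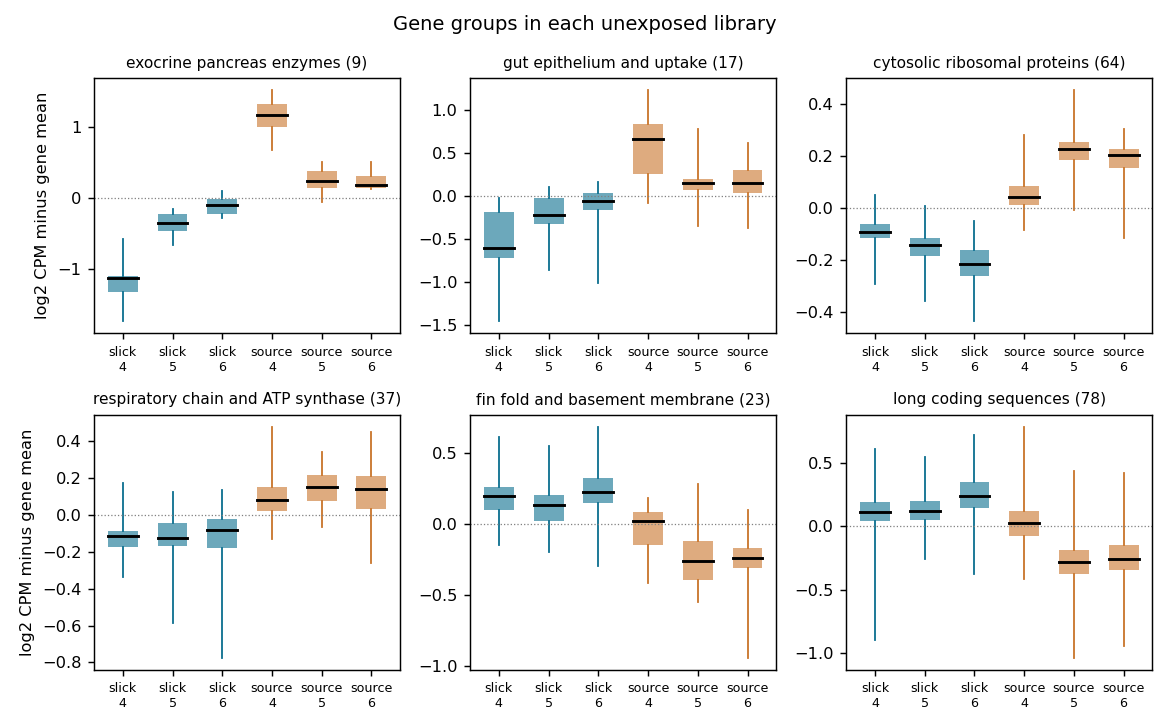
Each library's log2 CPM minus the mean of the 6 libraries, for the tested genes of 6 gene groups (number in brackets); black lines are medians over genes, boxes the interquartile range over genes and whiskers the lowest and highest gene, slick series left and source series right. Source-series library 4 is the highest of all for the pancreas and gut groups, and the source-series library nearest to the slick series for ribosomal proteins, basement membrane genes and long coding sequences.

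On the higher side, proteins of the finfold and of basement membranes, the sheets that anchor epithelia to the tissue below, were the group with the largest share of calls. Of 23 tested genes 9 were called higher and 0 lower, with a median of 0.34 and 20 positive values. Their summed level was 4869, 4648 and 5088 CPM in slick-series libraries 4 to 6, against 4331, 3554 and 3586 CPM in source-series libraries 4 to 6, without overlap. PKHD1L1, a very large membrane protein, had 116, 127 and 140 CPM in the slick series and 77.9, 59.0 and 44.8 CPM in the source series. All slick-series values were above all source-series values, at a log2 fold change of 1.07 (SE 0.14, adjusted p = 0.000123 by edgeR). HMCN1, the matrix protein hemicentin needed for zebrafish fin integrity, had 129, 115 and 116 CPM in the slick series and 92.5, 63.0 and 59.9 CPM in the source series, a log2 fold change of 0.74 (SE 0.13, adjusted p = 0.00248 by edgeR).

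COL7A1, the collagen of anchoring fibrils, had 26.1, 24.3 and 20.6 CPM in the slick series and 12.5, 11.8 and 11.6 CPM in the source series. It rose by 0.99 on the log2 scale (SE 0.18, adjusted p = 0.00328 by edgeR), and its lowest slick-series library was well above its highest source-series library. COL4A6, a network collagen of basement membranes, had 580, 552 and 643 CPM in the slick series and 444, 372 and 402 CPM in the source series, a log2 fold change of 0.54 (SE 0.09, adjusted p = 0.00191 by edgeR). LAMA5, a laminin chain, rose by 0.67, but lost its call without source-series library 6 (edgeR adjusted p = 0.0511). FRAS1 (0.56) and FREM2 (0.48), members of the Fraser complex that holds the zebrafish finfold together, HSPG2 (0.42), which is perlecan, and COL4A5 (0.35) made up the rest. Between 5 and 13 members were called, all higher, when 1 library was left out. There were 5 without source-series library 5 or source-series library 6, and 13 without source-series library 4. Some members, PKHD1L1, HMCN1 and LAMA5 among them, are also on a list of long coding sequences given below, whose median was 0.32. Whether this group differs apart from sequence length was not tested.

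Other matrix lists had fewer calls and mixed directions, beside 2.04% of all tested genes called higher and 2.41% lower. Of 29 bone and fibrous matrix genes 16 had positive and 13 negative fold changes, and of 23 cartilage genes 12 positive and 11 negative. COL14A1, a collagen that associates with fibrils, had 103, 88.2 and 92.9 CPM in the slick series and 59.8, 53.1 and 63.2 CPM in the source series, a log2 fold change of 0.70 (SE 0.11, adjusted p = 0.000883 by edgeR). The groups were separate. Of 29 bone and fibrous matrix genes tested it was called with COL5A3 (0.41), with 0 called lower and a median of 0.04. There were 9 calls in that list without source-series library 4. Of 23 cartilage genes 3 were called higher and 1 lower, with a median of 0.06. The higher ones were COL27A1 (0.37), the proteoglycan ACAN (0.49) and SOX9 (0.37), the regulator of cartilage fate, and the lower one was EPYC (-0.46). In ACAN the groups overlapped, and 0 cartilage genes were called without slick-series library 5, slick-series library 6 or source-series library 6. Without source-series library 5 the calls were 0 higher and 2 lower, and without source-series library 4 they were 7 higher and 0 lower.

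**Figure D4:**
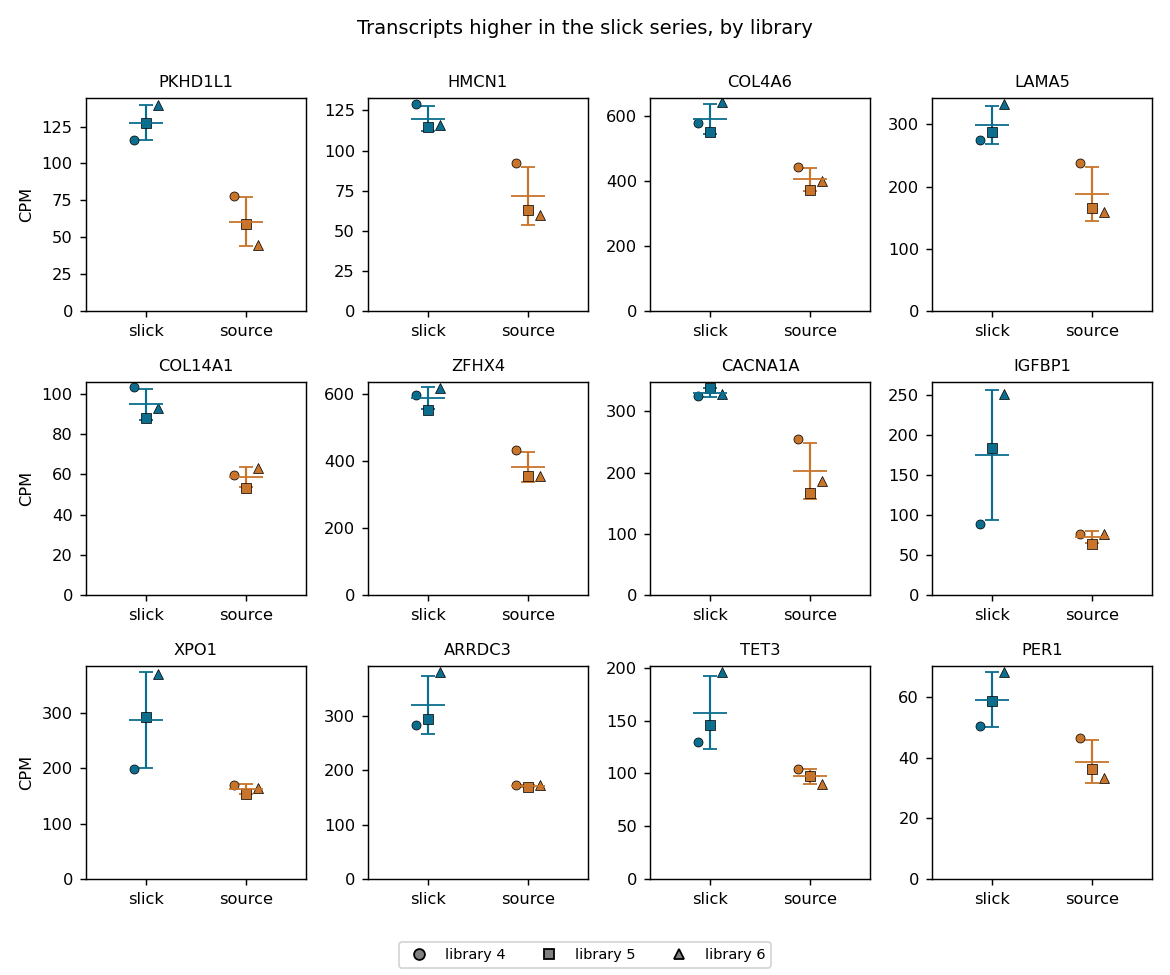
Level (CPM, from 0) of 12 transcripts called higher in the slick series, by library (circle, square and triangle for libraries 4, 5 and 6); horizontal marks and bars show mean and SD of 3 libraries, slick series left and source series right. In each panel all slick-series points lie above the source-series points, and in IGFBP1 and XPO1 slick-series library 4 lies close to the source series.

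Other genes of the 12 largest rises are given one by one, as no single list holds them. IGFBP1, which binds insulin-like growth factors and is made by the liver, had 89.0, 184 and 252 CPM in the slick series and 76.9, 63.6 and 75.8 CPM in the source series. Slick-series library 4 was only slightly above the source series, and the log2 fold change was 1.27 (SE 0.22, adjusted p = 0.00278 by edgeR). Its relative IGFBP2 went the other way, with a log2 fold change of -0.64 (edgeR adjusted p = 0.00215). These were the 1 higher and 1 lower call among 26 growth factor and IGF axis genes, whose median was -0.05. They made up 7.69% of the list, beside 4.45% of all tested genes called. There were 5 higher calls without source-series library 4. XPO1, the exportin that carries proteins out of the nucleus, had 198, 292 and 370 CPM in the slick series and 170, 153 and 164 CPM in the source series, a log2 fold change of 0.82 (SE 0.15, adjusted p = 0.00327 by edgeR). Its slick-series libraries spread widely, while the source-series libraries were close together. ARRDC3, an arrestin-domain adaptor that directs membrane receptors to degradation, had 284, 294 and 381 CPM in the slick series and 173, 170 and 173 CPM in the source series. It rose by 0.90 on the log2 scale (SE 0.10, adjusted p = 7.84e-05 by edgeR), with a gap much wider than the spread of either series.

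TET3, which oxidizes methylated cytosine in DNA, rose by 0.69, and the transcription factors ZFHX4 and ZFHX3 by 0.62 each. CACNA1A, the pore of a presynaptic calcium channel, had 325, 339 and 328 CPM in the slick series and 254, 166 and 187 CPM in the source series, a log2 fold change of 0.71 (SE 0.12, adjusted p = 0.00156 by edgeR). The slick-series libraries were almost equal and lay above all source-series libraries. Of 34 synaptic genes, however, 2 were called higher, GRIA1 (0.30) and BSN (0.69), and 0 lower, with a median of 0.10. That is 5.88% of the list, beside 2.04% of all tested genes called higher. Synaptic calls were 10 without source-series library 4 and 0 without slick-series library 5, slick-series library 6, source-series library 5 or source-series library 6. ZNF395 rose by 0.63 but lost its call when slick-series library 5, slick-series library 6, source-series library 5 or source-series library 6 was left out.

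CYR61 and CTGF, matricellular proteins that respond to growth factors and mechanical strain, fell. CYR61 had 70.8, 75.2 and 58.7 CPM in the slick series and 154, 137 and 162 CPM in the source series, and its log2 fold change of -1.14 (SE 0.11) had an edgeR adjusted p of 6.07e-06. CTGF had 140, 109 and 132 CPM in the slick series and 220, 186 and 183 CPM in the source series, a log2 fold change of -0.63 (SE 0.11, adjusted p = 0.00215 by edgeR). Both were separate between the series. Of 19 immediate early genes tested, these were the 2 called lower and the nuclear receptor NR4A3 (0.61) was the 1 called higher. NR4A3 was not called without slick-series library 5 (edgeR adjusted p = 0.0564) or slick-series library 6 (edgeR adjusted p = 0.0753). FBXO32, a ubiquitin ligase subunit of muscle protein breakdown, had 33.2, 22.1 and 22.2 CPM in the slick series and 81.5, 61.0 and 50.5 CPM in the source series, a log2 fold change of -1.31 (SE 0.18, adjusted p = 0.000228 by edgeR). Of 25 skeletal muscle genes 2 were called, both lower (8%, beside 2.41% of all tested genes), with a median of -0.11. The count was 0 without slick-series library 5 or source-series library 6. Without source-series library 4 it was 6, with 4 lower and 2 higher.

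Of 22 clock genes 2 were called higher, the repressors PER1 and PER3 (0.45), and 0 lower, with a median of 0.01. That is 9.09% of the list, beside 2.04% of all tested genes called higher. PER1 had 50.4, 58.6 and 68.4 CPM in the slick series and 46.6, 36.4 and 33.2 CPM in the source series, a log2 fold change of 0.61 (SE 0.14, adjusted p = 0.0206 by edgeR). The groups did not overlap, but PER1 lost its call without slick-series library 5, slick-series library 6, source-series library 5 or source-series library 6, with edgeR adjusted p between 0.0798 and 0.134. PER3 lost its call in the same 4 fits, so that each of them had 0 clock genes called. The hour of sampling is not in the labels used here, and its part was not tested. Several lists had 0 edgeR calls, and their counts at an unadjusted p under 0.05 stand beside 20.9% of all tested genes. They were 13 globin and heme genes (4 at an unadjusted p under 0.05, median -0.08), 18 macrophage and innate immunity genes (5, median -0.17) and 14 HOX genes (4, median 0.14). The same was true of 22 endoplasmic reticulum stress genes (1 at an unadjusted p under 0.05, median -0.01), 19 p53 targets (4, median -0.01) and 9 myelin and glia genes (3, median -0.02). Without source-series library 4 there were 3 globin and heme, 4 macrophage, 2 p53, 1 HOX and 3 ribosome biogenesis calls, and without slick-series library 4 there were 2 macrophage calls and 1 p53 call. DESeq2 also called 0 genes in these lists and in the AHR, lens, eye transcription factor and ribosome biogenesis lists, but could not test many members. It gave an adjusted p to 4 AHR, 5 macrophage, 5 p53, 5 myelin and glia, 9 ribosome biogenesis and 9 lens genes, and to 10 to 14 genes in the others. With only genes at 10 CPM or more kept, there were 2 globin and heme, 1 macrophage and 1 ribosome biogenesis calls. A fit of all 23 libraries gave 1 call each in the globin and heme, macrophage, myelin and glia, and AHR lists. Some other lists had fewer calls in that fit, with 0 of 23 clock, 1 of 24 phototransduction and 2 of 29 liver plasma protein genes. Others had more, with 38 of 64 ribosomal protein and 7 of 20 gut genes.

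Transcripts with very long coding sequences also lay on the higher side. In a list of 91 genes known in humans for long coding sequences, put together from general knowledge after the results had been seen and with no annotation to check the lengths, 78 were tested, 23 were called higher and 0 lower, 74 had positive fold changes and the median was 0.32. Their summed level was 17620, 17540 and 19440 CPM in slick-series libraries 4 to 6, against 17070, 13160 and 13390 CPM in source-series libraries 4 to 6. Source-series library 4 lay close to the slick series, and the other source-series libraries were lower. There were 54 calls without source-series library 4, 9 without slick-series library 5 or slick-series library 6, and 7 without source-series library 5 or source-series library 6. PKHD1L1, HMCN1, LAMA5 and ZFHX4 are on the list of long genes, while ribosomal proteins are short in humans. PKHD1L1, HMCN1 and LAMA5 are also on the fin fold and basement membrane list, so these lists are not independent. RNA integrity is not given in the sources used here, so its part in these differences was not tested. The running number at the start of each header is consecutive within the 3 libraries of a series and far apart between the series, so that series and place in that numbering cannot be told apart.

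Many genes that were lower in the slick-series controls were higher at 72 than at 48 hpf in larvae kept in slick oil. In slick-oil larvae, 72 hpf over 48 hpf shares no library with the series comparison, although the older larvae had also been in oil for longer. Of the 9116 genes in that fit, edgeR called 41.2%, with 21.6% higher and 19.6% lower. Of the 215 genes lower in the slick-series controls that were tested in both, 133 (61.9%) were called higher at 72 hpf and 22 (10.2%) lower, beside 21.3% and 20.0% of all 8931 genes tested in both. The 133 genes made up 7.01% of the genes higher at 72 hpf. Of 184 genes higher in the slick-series controls 31 (16.8%) were higher at 72 hpf and 59 (32.1%) lower. Over all 8931 genes the fold changes had a Pearson r of -0.19 and a Spearman rho of -0.07, given as a description across genes, which are not independent.

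By group, all 10 pancreas genes tested in slick-oil larvae were called higher at 72 hpf than at 48 hpf. Their median log2 fold change was 4.45. Of the gut genes 15 of 19 were higher and 1 lower, with a median of 2.18. Phototransduction had 16 of 23 higher and 1 lower, with a median of 0.67, and the amino acid list had 34 of 42 higher and 2 lower, with a median of 1.00. Ribosomal proteins had 26 of 64 higher and 0 lower, with a median of 0.19, but from 24 to 48 hpf 0 were higher and 34 lower. The fin fold and basement membrane list had 2 of 23 higher and 9 lower, with a median of -0.20. Not all groups went in opposite directions in these comparisons. Cell cycle genes, on the lower side of the series comparison by median, had 0 of 34 higher and 24 lower at 72 hpf. Proteasome genes had 2 of 30 higher and 3 lower. Long coding sequences, on the higher side of the series comparison, had 20 of 78 higher and 16 lower, with a median of -0.035. Single genes departed too. SOAT2 was lower at 72 hpf, with a log2 fold change of -2.70 for 72 over 48 hpf in slick oil. SOAT1 was lower too, with -0.87, while PKHD1L1 (0.97) and IGFBP1 (2.29) were higher. In these larvae age and time in oil cannot be told apart. Whether the series differed in developmental stage was not tested.

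From 24 to 48 hpf in slick oil the picture was less one-sided. Of the 9065 genes in that fit, edgeR called 38.2%, with 19.7% higher and 18.5% lower at 48 hpf. Of the 209 genes lower in the slick-series controls 68 (32.5%) were higher and 55 (26.3%) lower at 48 hpf, and of 185 genes higher in the slick-series controls 52 (28.1%) were higher and 57 (30.8%) lower. Over 8879 genes Pearson r was -0.05. By list, pancreas genes had 7 of 9 higher and 1 lower at 48 hpf, with a median of 3.17. Gut genes had 12 of 15 higher and 1 lower, and phototransduction genes 22 of 23 higher and 0 lower. Ribosomal proteins had 0 of 64 higher and 34 lower, with a median of -0.21. Liver plasma proteins had 1 of 23 higher and 14 lower, with a median of -1.25, and the amino acid list 6 of 42 higher and 14 lower.

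**Figure D5:**
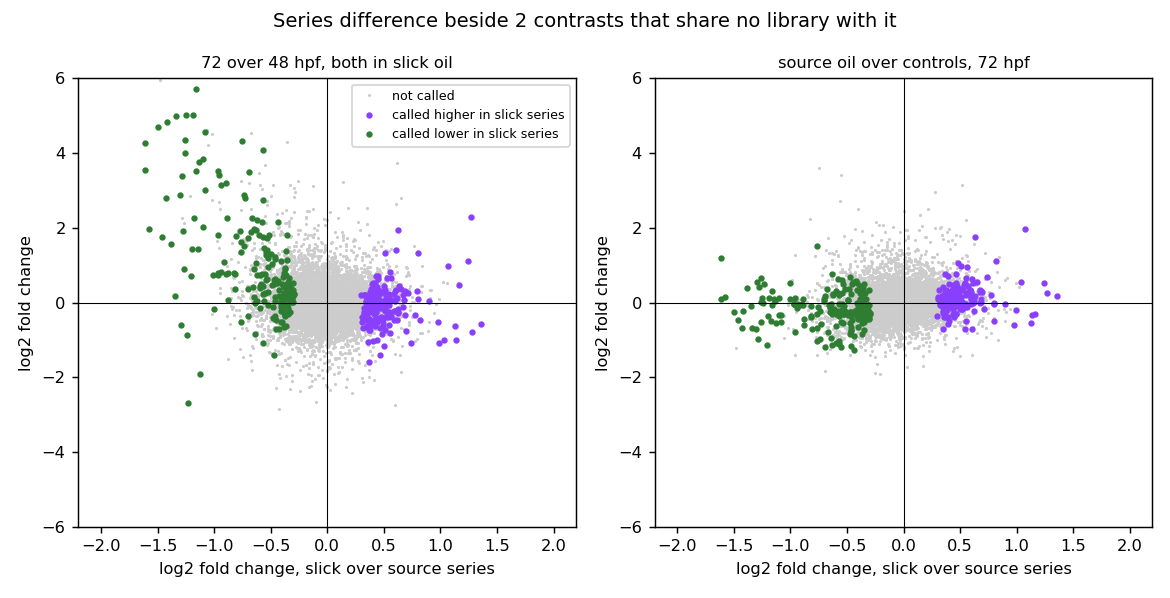
Log2 fold change of each gene in slick-series over source-series controls at 48 hpf (horizontal) against that in 72 over 48 hpf, both in slick oil (left), and in source oil over controls at 72 hpf (right); purple and green points are genes called higher and lower in the slick series and grey points the others. Of the 215 green genes, 133 were called higher at 72 hpf in the left panel, and 87 were called lower with source oil in the right panel.

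Genes that differed between unexposed series were also among those that responded to oil in other libraries. Source oil over its controls at 72 hpf shares no library with the series comparison, and edgeR called 20.4% of 8980 genes there, 11.4% higher and 9.03% lower. Of the 215 genes lower in the slick-series controls 87 (40.5%) were lower with source oil, making up 10.9% of its lower genes, and 22 (10.2%) were higher, beside 9.09% and 11.2% of all 8777 genes tested in both. Of the 183 genes higher in the slick-series controls 32 (17.5%) were higher with source oil and 11 (6.01%) lower. Across the 8777 genes Pearson r was 0.11 and Spearman rho 0.13. Ribosomal proteins had 54 of 64 lower with source oil, with a median log2 fold change of -0.36, and phototransduction genes 22 of 24, with a median of -0.91. Pancreas genes had 0 of 10 called in either direction, with a median of 0.08, and proteasome genes had 24 of 30 higher and 0 lower, with a median of 0.43. PKHD1L1, with a series difference of 1.07, had a log2 fold change of 1.96 with source oil (edgeR adjusted p = 5.93e-10).

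The slick-series controls are also the reference of slick oil at 48 hpf, where edgeR called 2.66% of 9088 genes, 1.91% higher and 0.748% lower. Because the libraries are shared, the comparisons are given side by side without a measure of agreement. SOAT2 had a log2 fold change of 1.24 for slick oil (edgeR adjusted p = 8.88e-05) and -1.23 for the series. SOAT1 had 1.04 for slick oil (edgeR adjusted p = 0.000313) and -1.24 for the series, and FBXO32 had 1.13 for slick oil (edgeR adjusted p = 0.0275) and -1.31 for the series. COL4A6 had -0.39 for slick oil (edgeR adjusted p = 0.027) and 0.54 for the series, and PER1 had -0.77 for slick oil (edgeR adjusted p = 0.00501) and 0.61 for the series. PKHD1L1 had 0.91 for slick oil (edgeR adjusted p = 0.000175) and 1.07 for the series. In these genes the slick-series control level thus enters both values, so the 2 signs are not independent. The genes given are examples. Among the other named genes called in both comparisons, RGR and ARR3 were lower in both. ZNF395, COL7A1, UROC1, HGD, PSMA2, PSMA6 and PSMC2 had opposite signs.

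Several genes that responded to slick oil were not called between the unexposed series. SQSTM1, an autophagy adaptor, had a log2 fold change of 2.15 for slick oil and 0.19 for the series (edgeR adjusted p = 0.537 for the series). MSMO1, an enzyme of cholesterol synthesis, had 1.33 for slick oil and -0.10 for the series (edgeR adjusted p = 0.637 for the series). PRDX1, a peroxidase, had 1.04 for slick oil and -0.16 for the series (edgeR adjusted p = 0.354 for the series). HBE1, an embryonic globin, had -0.80 for slick oil, called lower, and -0.39 for the series (edgeR adjusted p = 0.0514 for the series). Its slick-series libraries lay wholly below the source-series libraries, as in 12.6% of all tested genes. Both HBE1 and PRDX1 were called lower between the series without source-series library 4, a fit with 1206 called genes.

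The authors' deposited table for this comparison, headed as oil over control, gave 303 genes an adjusted p under 0.05, of which 158 were higher and 145 lower in the columns that hold the slick-series controls. Of these, 263 were called here too, which is 86.8% of the authors' calls and 64.9% of the calls here, all in the same direction. The authors gave an adjusted p to 3695 genes, against 9097 tested here, so some genes called here had none there. CYP1A1 had a log2 fold change of -0.27 with an adjusted p of 0.302 in the authors' deposited table, against -0.75 here. DESeq2 refitted here gave CYP1A1 -0.74 (DESeq2 adjusted p = 0.325). The authors' values were also smaller in size for PRSS1 (-0.55 against -1.14) and CELA1 (-0.41 against -1.50), so sizes cannot be compared directly. The authors' DESeq2 adjusted p was under 0.05 for the pancreas genes PRSS1 (0.0196) and CPA1 (0.00158). It was above 0.05 for CTRB1 (0.0589), CELA1 (0.0649), AMY2B (0.135) and AMY1B (0.139), and for KLK14 (0.0722) and FAM13A (0.0592).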

How the data were processed

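RNA of pooled whole larvae was prepared with a TruSeq kit, per the labels. Per the file headers, the deposited tables hold one column of read counts for each library, 56346 rows with human symbols, and the authors' log2 fold changes, p-values and adjusted p-values. The submitters' processing notes list HTSeq, DESeq2 and the human build hg19. The aligner is not given in the sources used here. The deposited counts are whole numbers with different totals.

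Libraries were placed in groups by the name in the header, since table prefixes disagree with it in places. Counts were read from 5 of the 6 deposited files, giving 23 libraries, 6 of them present in more than 1 table; 7 library columns were not used. Where a symbol was repeated, the row with the highest summed count was kept, and 8 surplus rows were dropped.

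Counts were fitted with edgeR 4.0.16 in R 4.3.3 (filterByExpr, TMM, glmQLFit, glmQLFTest), each comparison on its own 3 libraries per group, after a test on simulated data. DESeq2 1.42.0 was an alternative, as were RLE scaling, other filters, a replicate block, a fit of all 23 libraries and leaving out each library. Lists were described by counts and medians. Members and lists were chosen with earlier results of these data known. For naming, called genes with separate groups and a mean of at least 30.1 CPM (the median gene) were ranked by fold change and 12 taken from each end, with up to 4 called members with the smallest adjusted p of each list with at least 3, and 12 fixed genes, of which CYP1B1, TIPARP and SQLE did not pass the filter. Others named were chosen after their values were seen.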

Additional observations from a re-analysis of the deposited data

How the results depend on the processing

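Against 405 called genes, the count was 299 with DESeq2 (264 shared with edgeR), 412 with RLE scaling, 459 without a low-count filter, 425 at 10 CPM or more and 504 in a fit of 23 libraries. DESeq2 gave an adjusted p to 4347 genes, against 9097 in the main edgeR fit. Leaving out 1 library gave 97 to 1206. A replicate block by header number gave 51. Deviations from the group mean had r of -0.18, -0.04 and -0.12 between same-numbered libraries 4, 5 and 6, and -0.10 to 0.19 between others. With 3 libraries a group this cannot decide whether the numbers mark pairs, and the main fit has no block. With the block, calls were 0 of 64 ribosomal protein, 0 of 37 respiratory chain, 0 of 42 amino acid and 0 of 23 phototransduction genes. They were 2 of 9 in the pancreas list and 5 of 23 in the fin fold and basement membrane list. The ribosomal median with the block was -0.32. Of the 75 called genes among the 83 named, 37 kept their call in every fit that left out 1 library. Under every alternative that gave them an adjusted p, 27 kept it. DESeq2 gave none to some named genes, among them APOA4, COL7A1 and MOGAT2, so for such genes it was no check. In 0 cases did a named gene's direction reverse. For slick oil at 48 hpf, 242 genes were called, 98 with the replicate block, and 102 to 940 leaving out 1 library, the highest without slick-oil library 4. For source oil at 72 hpf, 1832 were called and 1183 with DESeq2. The replicate block there gave 2010, and the counts for both age comparisons, 3461 and 3755, moved by less than 1.5 times; no replicate block was possible for them because they share no header number. The cause of these differences was not tested. With 3 libraries a group and 2532402 to 3071850 counts each, small changes of low genes could not be detected reliably.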

Other observations

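Among genes outside the naming rule, chosen after their values were seen, some held their call in every fit that left out 1 library. LRP4, a co-receptor of Wnt and neuromuscular signalling, had 315, 291 and 328 CPM in the slick series and 219, 200.0 and 201 CPM in the source series, a log2 fold change of 0.59 (edgeR adjusted p = 0.000607). SLIT3, an axon guidance ligand, rose by 0.59 and PLXNA3, a semaphorin receptor, by 0.55. ADAMTS2 and ADAMTS3, which cleave the propeptides of fibrillar collagens, rose by 0.53 and 0.54. SIK1, a kinase induced by cyclic AMP, had 26.4, 24.3 and 24.1 CPM in the slick series and 16.0, 9.51 and 6.14 CPM in the source series, a log2 fold change of 1.24 (edgeR adjusted p = 0.00366).

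On the lower side, TXNIP, a glucose-responsive inhibitor of thioredoxin, had 136, 88.2 and 102 CPM in the slick series and 184, 185 and 178 CPM in the source series, a log2 fold change of -0.74 (edgeR adjusted p = 0.00142). ANGPTL4, an inhibitor of lipoprotein lipase, fell by 0.94, and EIF4EBP3, a repressor of translation initiation, by 0.67. AGXT, which detoxifies glyoxylate in the liver, fell by 0.56 and AKR1D1, a reductase of bile acid synthesis, by 0.55.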
